A study of Mus musculus with 16 samples.

Results

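Transcripts of 10 subunits of the vacuolar H+-ATPase (V-ATPase) were followed in mouse spinal cord after spinal cord injury (SCI), with and without atorvastatin. The genes were taken by symbol from the 24411 rows of the deposited tables. They were grouped by known use into 3 forms rich in neurons (Atp6v1g2, Atp6v0a1, Atp6v0e2), 6 general forms (Atp6v1g1, Atp6v0d1, Atp6v1a, Atp6v1b2, Atp6v1c1, Atp6v0c) and 1 form restricted to osteoclasts, kidney and some macrophages (Atp6v0d2). All mice were female C57BL/6J. In the SCI + Vehicle group (n = 7), injured at 12 wk of age, a 0.25 mm lateral compression of the thoracic cord was followed from week 2 by daily vehicle (dimethyl sulfoxide, polyethylene glycol, Tween 80 and saline) for 4 wk. The SCI + Atorvastatin group (n = 7) had the same injury and received atorvastatin, a cholesterol-lowering inhibitor of HMG-CoA reductase, at 10 mg/kg in that vehicle. The Uninjured Control group (n = 2) was neither injured nor given vehicle, and per the study's methods its cords were taken at a younger age than those of the SCI mice. Injury, vehicle and age thus cannot be told apart in comparisons with it. In that of the SCI + Atorvastatin group with it, the drug cannot be told apart from these either. Total RNA came from a 5 mm section around the injury site at week 6, or from the matching site. A section holds neurons, glia, vessels and invading cells together.

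The V-ATPase is a rotary proton pump. Its soluble V1 sector hydrolyses ATP in catalytic A and regulatory B subunits, which are tied by C, E, G and H stalk subunits to the membrane V0 sector, where a and c subunits carry protons and a d subunit couples the rotor. The pump acidifies lysosomes and endosomes in every cell, and in neurons it also loads synaptic vesicles with transmitter. Several subunits exist as isoforms encoded by separate genes. In these, G2, a1 and e2 are rich in brain, whereas the a3 subunit (Tcirg1) and d2 are known from osteoclasts and macrophages.

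Libraries held 14823292 to 25579826 counts on genes, the lowest being SCI + Vehicle replicate 4. The summed TPM (transcript abundance scaled for gene length and to a fixed library sum) of 18 neuron markers was 13939 and 17308 in the controls, 9356 to 14150 in the SCI + Vehicle group and 8557 to 11972 in the SCI + Atorvastatin group. Neuron transcripts of the labelled tissue were thus detected in every mouse, at lower sums in most SCI mice. The sum of 12 microglia or macrophage markers was 132 to 193 in the controls against 2050 to 4921 in the SCI mice. SCI + Vehicle replicate 7 stood at the neuron-high and macrophage-low end of the SCI mice. The controls differed from the SCI libraries in composition: 8 liver genes summed to 1312 and 6614 TPM in the 2 controls and to at most 13.7 TPM in any SCI mouse. In the controls 12732 and 12356 genes had a count, against 16399 to 19338 in the SCI mice. The controls also differed from each other. The part of the liver transcripts in the values below was not tested.

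Because isoforms of 1 subunit are similar, their transcripts were first compared in sequence (GENCODE M21, GRCm38). The coding sequences of Atp6v1g1 and Atp6v1g2 are both 357 bases long, for 118 residues each, and are 65.0% identical when aligned. Their longest identical run is 11 bases. The first 60 coding bases of this pair and of the d pair are shown because the ratio of each pair is compared below. Capitals mark the bases that differ from the partner, 9 in the G pair and 20 in the d pair.
Atp6v1g1: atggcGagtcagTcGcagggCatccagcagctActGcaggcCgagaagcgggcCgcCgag
Atp6v1g2: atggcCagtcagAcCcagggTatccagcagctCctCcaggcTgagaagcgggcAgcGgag
Atp6v0d1: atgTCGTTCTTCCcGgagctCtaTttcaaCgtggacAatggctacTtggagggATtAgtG
Atp6v0d2: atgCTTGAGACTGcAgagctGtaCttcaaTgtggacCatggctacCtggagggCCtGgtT
Atp6v0d1 (1056 coding bases) and Atp6v0d2 (1053) are 65.7% identical, with a longest identical run of 17 bases. Isoforms of a pair are thus distinct over any stretch of 100 bases. For 8 of the 10 genes no stretch of 100 bases of the longest coding transcript occurred in a transcript of another gene. The exceptions were Atp6v1g1, with 76 of 1036 such stretches in Gm12344 and Gm13453, and Atp6v0c, with 266 of 1084 in Atp6v0c-ps2. Counts for these 2 genes are uncertain for that reason. Exons overlapped those of another gene in Atp6v1g2 only, over 144 of 2510 bases with Nfkbil1 on the opposite strand, and the counting is not stated to use strand.

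Atp6v0c, the proton-carrying c subunit, illustrates the difference between the deposited tables. On the TPM scale it was the most abundant of the 10 in the SCI groups, with 618 ± 51.5 TPM (SD, n = 7) in SCI + Vehicle and 546 ± 63.5 TPM (SD, n = 7) in SCI + Atorvastatin mice. It was 674 TPM in Uninjured Control replicate 1 and listed at 0 in replicate 2. In the count table its highest value in any mouse was 21, and 13 of the 16 mice had a count of 0. The count test on it was therefore not interpretable and only its TPM are described. Limma on log2(TPM + 1) gave a difference of -0.18 (SE 0.0782, adjusted p = 0.669) between SCI + Atorvastatin and SCI + Vehicle mice.

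**Figure D1:**
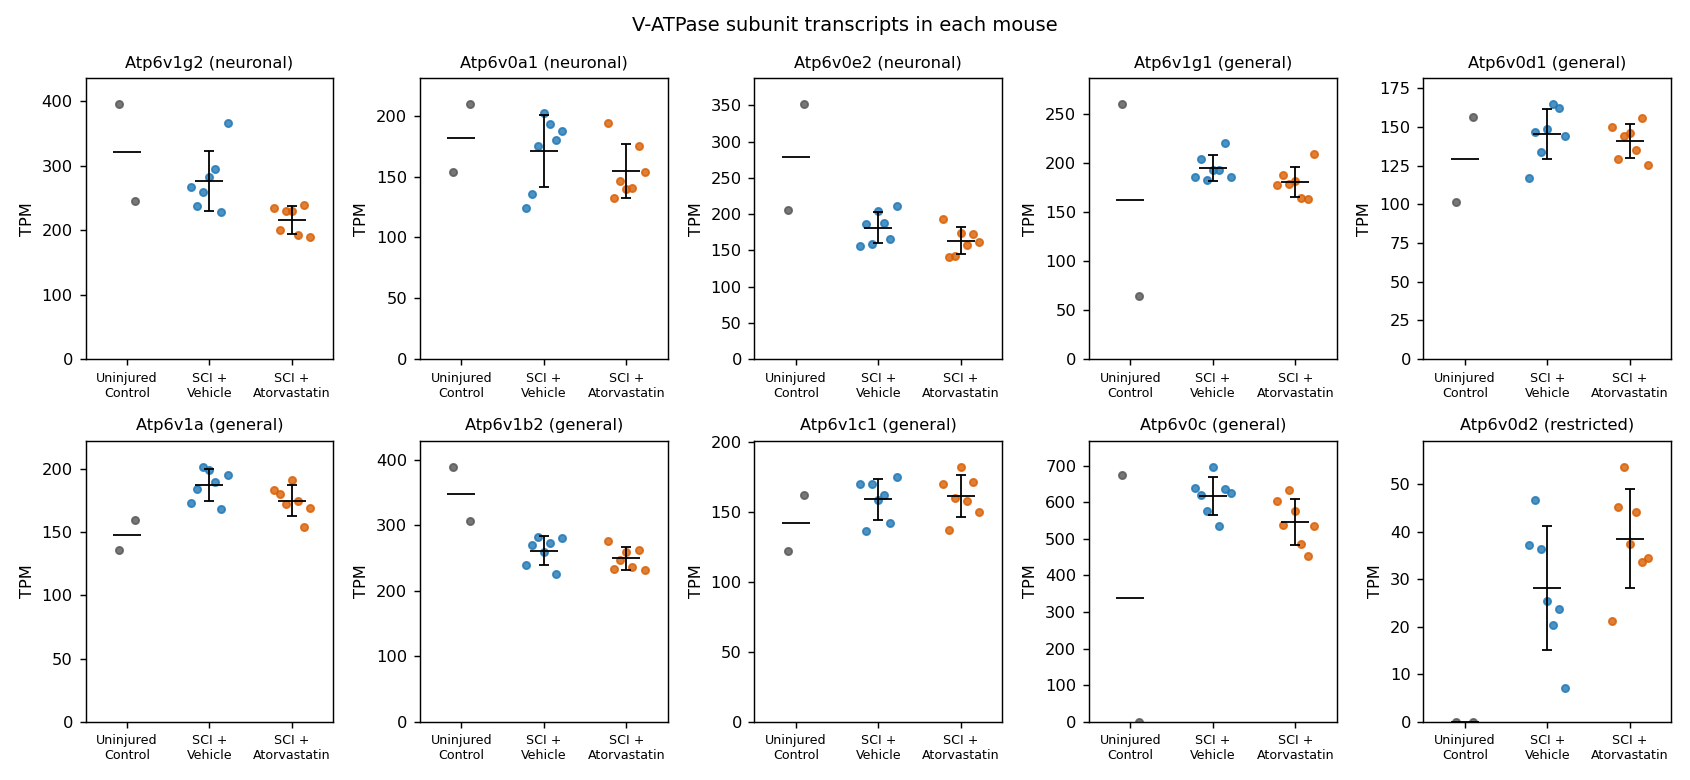
TPM of each of the 10 genes (vertical axis, from 0) in every mouse, by group. Points are mice, horizontal bars are group means and whiskers are 1 SD in the 2 groups of 7. Atp6v0d2 is at 0 in both controls, while 1 of 2 controls stands far from the other in Atp6v1g1 and Atp6v0c.

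Below Atp6v0c, 8 of the genes lay close together. Their mean levels ran from 145 TPM (Atp6v0d1) to 276 TPM (Atp6v1g2) in SCI + Vehicle and from 141 TPM (Atp6v0d1) to 250 TPM (Atp6v1b2) in SCI + Atorvastatin mice. In the SCI + Vehicle group the order from the top was Atp6v1g2, Atp6v1b2, Atp6v1g1, Atp6v1a, Atp6v0e2, Atp6v0a1, Atp6v1c1 and Atp6v0d1, and each gene differed from its neighbour by less than their SDs except Atp6v1b2 from Atp6v1g1. In the SCI + Atorvastatin group Atp6v1b2 stood above Atp6v1g2, with ranges that overlapped. Atp6v0d2 was lowest in every group. Among SCI + Vehicle mice the coefficient of variation was 6.77% to 11.2% for the 6 general forms, 11.9% to 17.4% for the 3 neuronal forms and 46.5% for Atp6v0d2. Among SCI + Atorvastatin mice it was 6.77% to 11.6%, 10.0% to 14.3% and 26.9%, so that the general and neuronal forms overlapped.

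All 10 genes passed the filter of a mean above 1 TPM in at least 1 condition, Atp6v0d2 only through the SCI groups. Against the Uninjured Control group edgeR's quasi-likelihood test was run over 16091 genes. Calls needed at least a 1.25-fold difference in either direction and an adjusted p (Benjamini-Hochberg) under 0.05. With SCI + Vehicle, 3 of the 10 were called, 2 lower (Atp6v0e2, Atp6v1b2) and 1 higher (Atp6v0d2). Of all genes tested, 29.8% were called, 9.91% lower and 19.9% higher. On log2(TPM + 1), limma split the calls over all genes into 689 lower and 3763 higher, against 1594 and 3195 in edgeR. With SCI + Atorvastatin, 5 of the 10 were called, 4 lower (Atp6v1g2, Atp6v0a1, Atp6v0e2, Atp6v1b2) and 1 higher (Atp6v0d2), against 38.9% of all genes, 14% lower and 24.9% higher. There limma called 1238 lower and 5078 higher, against 2256 and 4003 in edgeR. Since Atp6v0d2 passed the filter only where it was high, its calls are a description and carry no test. The median log2 fold change was -0.14 over the 10 genes and 0.17 over all genes for SCI + Vehicle, and -0.19 and 0.21 for SCI + Atorvastatin. The TPM of the groups did not overlap in 1 gene on the lower side (Atp6v1b2) and 2 on the higher (Atp6v1a, Atp6v0d2) with SCI + Vehicle, against 6.67% and 26.3% of all genes. With SCI + Atorvastatin there were 3 lower (Atp6v1g2, Atp6v0e2, Atp6v1b2) and 1 higher (Atp6v0d2), against 8.91% and 32.3%. These comparisons share both controls. All calls in them were lost in limma-voom with group quality weights, which called 131 and 146 of all genes. In bulk tissue, fewer cells of a type and less RNA per cell cannot be told apart.

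The 3 neuronal forms had negative fold changes in both comparisons with controls, and Atp6v0e2 was called in each. This gene (chr6:48537615-48541801) encodes the small e2 subunit of V0. Its TPM was 205 and 351.98 in the controls. In the SCI + Vehicle group it was 156, 186, 159, 204, 187, 166 and 211 TPM, and in the SCI + Atorvastatin group 193, 141, 142, 174, 158, 172 and 161 TPM. All 7 SCI + Atorvastatin mice lay below both controls, and among SCI + Vehicle mice 1 reached the lower control. Atp6v0e2 fell by 0.76 on the log2 scale with SCI + Vehicle (SE 0.165, edgeR adjusted p = 0.00617) and by 0.91 with SCI + Atorvastatin (SE 0.142, edgeR adjusted p = 0.000725). Without Uninjured Control replicate 2 the first of these was -0.46 and no longer called, and limma on log2(TPM + 1) gave -0.58, also not called.

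Atp6v1g2 (chr17:35233660-35238767) encodes the G2 subunit, a stalk component of neurons and their synaptic vesicles. Its TPM was 396 and 246 in the controls. It was 267, 237, 259, 282, 294, 228 and 366.4 TPM in SCI + Vehicle mice. In SCI + Atorvastatin mice it was 235, 200.1, 230.4, 229, 192, 239 and 189 TPM, below both controls in every mouse. With SCI + Atorvastatin Atp6v1g2 fell by 0.75 on the log2 scale (95% CI -1.16 to -0.34, edgeR adjusted p = 0.00884). With SCI + Vehicle the difference was -0.43 (95% CI -0.93 to 0.076, edgeR adjusted p = 0.184). Both rest on Uninjured Control replicate 1: without it the values were -0.20, no longer called, and 0.12, of the other sign. Without Uninjured Control replicate 2 they were -1.16 and -0.83, both called.

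Between the injured groups Atp6v1g2 showed the smallest p of the 10 genes. All 7 SCI + Atorvastatin mice lay below the SCI + Vehicle median of 267 TPM, while the ranges overlapped between 228 and 239 TPM. The log2 fold change was -0.34 (95% CI -0.54 to -0.14), which missed the limit set for this comparison, an unadjusted p under 0.001 with the same fold (edgeR adjusted p = 0.680). The call turned on the tool and on single mice. The unadjusted limit was passed in DESeq2 (adjusted p = 0.320) and in edgeR without SCI + Vehicle replicate 2 (adjusted p = 0.424). Without SCI + Vehicle replicate 7, the mouse with the highest level, the difference was -0.24 and not called. Over its other settings the adjusted p ran from 0.320 to 1. The study picked this gene on these samples, so its value is not independent evidence of a difference.

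Atp6v0a1 (chr11:101009452-101063719) encodes the a1 subunit, the form of presynaptic terminals. It was 154 and 210 TPM in the controls, 124 to 203 TPM (median 180.0) in SCI + Vehicle and 133 to 194 TPM (median 147) in SCI + Atorvastatin mice, with ranges that overlapped. Atp6v0a1 fell by 0.38 on the log2 scale with SCI + Atorvastatin (SE 0.112, edgeR adjusted p = 0.0228), a call that limma on log2(TPM + 1) did not make (-0.23). With SCI + Vehicle the value was -0.27 (95% CI -0.61 to 0.073).

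**Figure D2:**
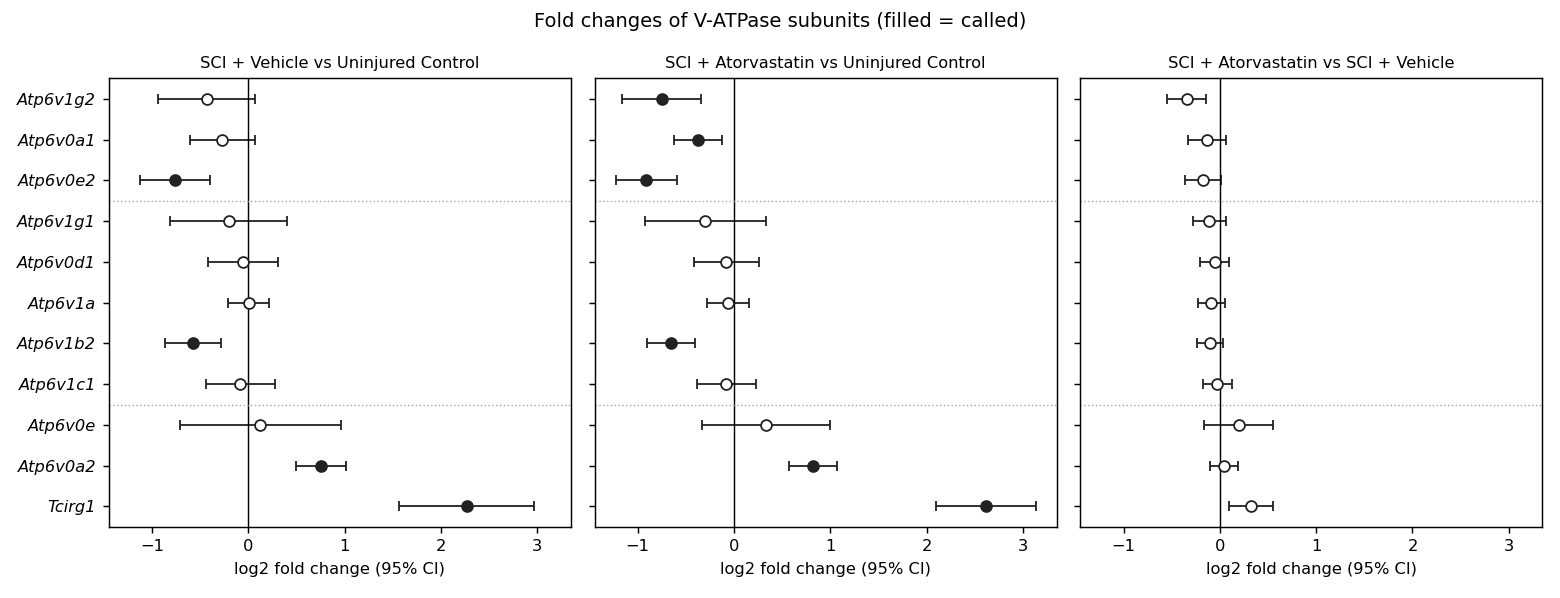
Log2 fold changes in counts (horizontal axis) with 95% confidence intervals from edgeR for 8 of the 10 genes and 3 partner isoforms, in the 3 comparisons. Filled points were called. Dotted lines part the neuronal forms (top), the general forms and the partner isoforms. Atp6v0d2 and Atp6v0c are left out because of counts of 0. Atp6v0e2 and Atp6v1b2 are filled on the lower side in both comparisons with controls, and no point is filled between the injured groups.

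Of the 6 general forms, 1 was called against the controls in edgeR, lower in both comparisons, where 9.91% and 14% of all genes were called lower. Atp6v0c is among the other 5 although its counts were not interpretable. Atp6v1b2 (chr8:69088646-69113711), the B2 regulatory subunit, which is the main B form of brain, was 390 and 307 TPM in the controls. It was 240, 270, 282, 259, 273, 226 and 281 TPM in SCI + Vehicle and 276, 234, 247, 259, 236, 263 and 232 TPM in SCI + Atorvastatin mice. All 14 SCI mice lay below both controls. Atp6v1b2 fell by 0.57 on the log2 scale with SCI + Vehicle (SE 0.131, edgeR adjusted p = 0.00822) and by 0.65 with SCI + Atorvastatin (SE 0.113, edgeR adjusted p = 0.00132). The first value was -0.29, not called, without Uninjured Control replicate 1.

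Atp6v1a (chr16:44085402-44139705), the catalytic A subunit, had log2 fold changes in counts of 0.0046 (95% CI -0.21 to 0.22) with SCI + Vehicle and -0.061 (95% CI -0.28 to 0.16) with SCI + Atorvastatin. On the TPM scale, however, it was 136 and 159 in the controls and 168 to 202 in SCI + Vehicle mice, with no overlap, and limma on log2(TPM + 1) called it higher by 0.34. The median of all genes moved the same way on that scale, from 0.17 to 0.49. Atp6v1c1 (chr15:38661933-38692446), the C1 subunit that regulates assembly of V1 with V0, and Atp6v0d1 (chr8:105524465-105566047), the general d subunit, had log2 fold changes between -0.081 and -0.050 in both comparisons. Their intervals ran from -0.44 to 0.31, and without 1 control or the other their signs differed. Atp6v1c1 and Atp6v0d1 were called lower with SCI + Atorvastatin without Uninjured Control replicate 1 (-0.34 and -0.37).

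Atp6v1g1 (chr4:63544772-63550750), the general G subunit, could not be placed against the controls. It was 260.0 TPM in Uninjured Control replicate 1 and 64.6 TPM in replicate 2, and the 14 SCI mice lay between them, from 164 to 220 TPM. The log2 fold changes of -0.20 with SCI + Vehicle and -0.30 with SCI + Atorvastatin were not called. Against replicate 2 alone they were 0.71 and 0.63, and against replicate 1 alone -0.77 and -0.86, each called.

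Between the injured groups the general forms were close. Log2 fold changes of SCI + Atorvastatin over SCI + Vehicle were -0.11 for Atp6v1g1 (95% CI -0.28 to 0.060) and -0.10 for Atp6v1b2 (95% CI -0.24 to 0.029). Those of Atp6v1a, Atp6v0d1 and Atp6v1c1 were smaller, and that of Atp6v1c1 (-0.025) changed sign on log2(TPM + 1). The other neuronal forms had values of -0.13 (Atp6v0a1) and -0.18 (Atp6v0e2, 95% CI -0.36 to 0.0092). None of the 10 genes was called in edgeR, against 0.106% of all genes at this limit. At an unadjusted p below 0.05 there was 1 of 10 (Atp6v1g2), against 7.03% of all genes. That count takes Atp6v0c from its counts of nearly 0. On log2(TPM + 1) limma gave it -0.18 (adjusted p = 0.669), a larger difference than those of the other general forms in edgeR and one that also had an unadjusted p below 0.05. DESeq2 called 1 and limma none. Over all genes the smallest edgeR adjusted p was 0.680.

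Atp6v0d2 (chr4:19876841-19922605), the d2 subunit known from osteoclast fusion and from macrophages, was the only one of the 10 called higher in edgeR. It had a count of 0 in both controls. In SCI + Vehicle mice it was 37.3, 46.8, 36.4, 25.5, 20.4, 23.8 and 7.09 TPM, on 144 to 1085 counts. In SCI + Atorvastatin mice it was 21.3, 45.3, 53.7, 37.3, 44.1, 33.7 and 34.6 TPM, on 475 to 1196 counts. Every SCI mouse was above the controls, and the lowest was SCI + Vehicle replicate 7. Taking the 3 counts per library that a count of 0 allows as the floor, which covers counting error only, the mean was at least 192-fold higher with SCI + Vehicle and at least 265-fold higher with SCI + Atorvastatin. Atp6v0d2 averaged 766 counts in the SCI mice. Of 2810 genes that averaged 500 to 1000 counts there, 19 (0.676%) were at 0 in both controls. In the single controls 2.38% and 4.09% of them were at 0, against at most 0.0356% in any SCI mouse. Between the injured groups the log2 fold change was 0.47 (95% CI -0.15 to 1.08, edgeR adjusted p = 0.764), an interval that holds 0.

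The macrophage form of another subunit was also higher. Tcirg1, the a3 subunit of V0, was 5.72 and 7.84 TPM in the controls. It was 29.7 to 44.2 TPM in SCI + Vehicle and 42.6 to 53.1 TPM in SCI + Atorvastatin mice. Tcirg1 rose by 2.27 on the log2 scale with SCI + Vehicle (SE 0.317, edgeR adjusted p = 0.000602) and by 2.62 with SCI + Atorvastatin (SE 0.231, edgeR adjusted p = 3.5e-05). The a2 subunit Atp6v0a2, known from endosomes and the Golgi apparatus, rose by 0.76 and 0.82. Its counts are uncertain, since 472 of 5246 stretches of 100 bases also occur in 4930404A12Rik. The kidney forms Atp6v0a4 and Atp6v1b1 did not pass the filter, with at most 2.06 and 0.46 TPM in any mouse.

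The make-up of the a subunit is given as shares, without a test, since it was noticed after the values had been seen. Atp6v0a1 made up 81.8% and 83.5% of the summed TPM of the 4 a-subunit genes in the controls. In SCI + Vehicle mice its share was 52.7, 55.5, 62.4, 68.9, 65.4, 61.7 and 66.7%, and in SCI + Atorvastatin mice 60.7, 53.7, 54.4, 52.9, 56.1, 60.3 and 57.3%. No SCI mouse reached the controls. The share of Tcirg1 was 3.03% and 3.12% in the controls, 10.1% to 18.1% in SCI + Vehicle and 13.3% to 20.8% in SCI + Atorvastatin mice.

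**Figure D3:**
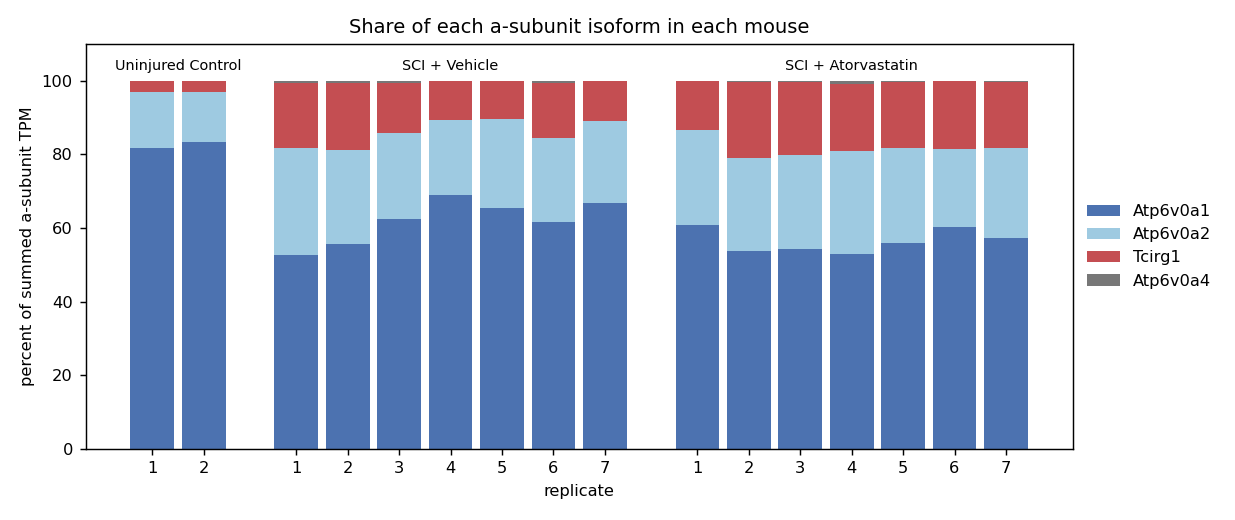
Share of the summed TPM of the 4 a-subunit genes (vertical axis, percent) taken by each in every mouse (horizontal axis, replicate within group). Atp6v0a1 takes over 80% in both controls and 52.7% to 68.9% in the SCI mice, where Atp6v0a2 and Tcirg1 take more.

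Ratios within a mouse compare 2 forms of 1 subunit without a library scale. They were computed as log2 ratios of TPM with a pseudocount of 0.1 and compared by exact two-sided permutation tests, 9 in all. The genes were chosen with earlier results of these data known, so the p values describe the ratios and are not independent evidence. With 7 mice against 2 the smallest p possible is 0.0556, so these comparisons with controls cannot reach 0.05. The ratio of the neuronal Atp6v1g2 to the general Atp6v1g1 was 0.61 and 1.93 in the controls, 0.49 ± 0.296 (SD, n = 7) in SCI + Vehicle and 0.26 ± 0.227 (SD, n = 7) in SCI + Atorvastatin mice. All 7 SCI + Atorvastatin mice were below both controls, a difference of -1.004 (exact permutation p = 0.0556, adjusted p = 0.167). Without Uninjured Control replicate 2 it was -0.34, without replicate 1 it was -1.66, and on counts in place of TPM it was -0.56. The difference was -0.78 with SCI + Vehicle (exact permutation p = 0.167), or -0.12 without Uninjured Control replicate 2 and -0.34 on counts, and -0.23 between the injured groups (exact permutation p = 0.133, adjusted p = 0.180).

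The ratio of Atp6v0e2 to Atp6v0e, the general e subunit, was 0.95 and 3.09 in the controls, 1.12 ± 0.600 (SD, n = 7) in SCI + Vehicle and 0.63 ± 0.326 (SD, n = 7) in SCI + Atorvastatin mice. The differences from the controls were -0.91 with SCI + Vehicle (exact permutation p = 0.333) and -1.40 with SCI + Atorvastatin (exact permutation p = 0.111). Both rest on Uninjured Control replicate 2, without which they were 0.16 and -0.33. It differed by -0.49 between the injured groups (exact permutation p = 0.0828, adjusted p = 0.180). SCI + Vehicle replicate 1, with the lowest ratio of its group (-0.032), decided this: without it the difference was -0.68 (exact permutation p = 0.00233), which passed after adjustment. The ratio of Atp6v0d2 to Atp6v0d1 was -10.61 and -9.99 in the controls, where it is set by the pseudocount, so the 2 tests against the controls are not read. It was -2.55 ± 0.957 (SD, n = 7) in SCI + Vehicle and -1.91 ± 0.481 (SD, n = 7) in SCI + Atorvastatin mice, a difference of 0.63 (exact permutation p = 0.140, adjusted p = 0.180). Without SCI + Vehicle replicate 7 the difference between the injured groups was 0.34.

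**Figure D4:**
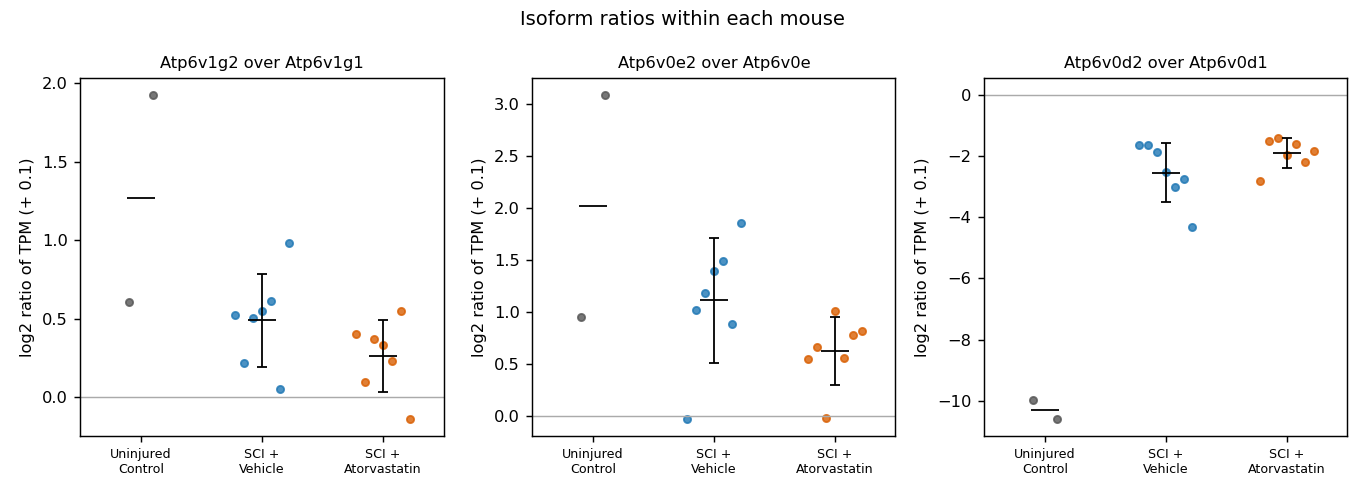
Log2 ratios of TPM, with 0.1 added to each, for 3 pairs of isoforms (vertical axis) in every mouse, by group. Points are mice, horizontal bars are group means and whiskers are 1 SD in the 2 groups of 7. The neuronal ratios of both panels on the left spread widely in the 2 controls, and the d ratio is far below the SCI mice in both.

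By class, the mean log2 TPM of the 3 neuronal forms minus that of the general forms other than Atp6v0c was 0.40 and 0.79 in the controls. It was 0.13 ± 0.141 (SD, n = 7) in SCI + Vehicle and -0.021 ± 0.107 (SD, n = 7) in SCI + Atorvastatin mice, and every SCI mouse was below both controls. With Atp6v0c included the injured groups were at -0.16 and -0.29, and the controls at 0.074 and 2.55. The higher control value comes from the 0 TPM listed for Atp6v0c in Uninjured Control replicate 2. SCI + Vehicle replicate 7, at 0.063, was then nearly level with Uninjured Control replicate 1. The genes were chosen with results known, so no p is given. The median log2 fold change in counts was -0.43 for the 3 neuronal and -0.065 for the 6 general forms with SCI + Vehicle, and -0.75 and -0.080 with SCI + Atorvastatin. For the 5 general forms without Atp6v0c, whose counts were not interpretable, it was -0.080 and -0.081. These medians hold for the listed genes only. For the tested V1 genes of the rest of the complex, Atp6v1e2 included, the median was -0.58 in both comparisons with controls. Among them Atp6v1e1 had -0.72 with SCI + Vehicle and -0.82 with SCI + Atorvastatin, and Atp6v1d -0.58 and -0.58. For the tested V0 genes of the rest the median was 0.20 and 0.33. Whether neuronal forms differ from general ones across the whole complex was not tested.

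The rest of the complex showed both directions. In each comparison with controls all 5 tested V1 genes outside the 10 had negative values, and 4 of the 5 tested V0 genes had positive ones. The median of all genes was itself positive, at 0.17 and 0.21. Of the positive V0 genes, Atp6v0e changed sign when each mouse was left out in turn (-0.29 to 0.68 and -0.081 to 0.90). Of 14 other subunit genes 10 were tested. With SCI + Vehicle 3 were called lower and 2 higher, and with SCI + Atorvastatin 5 lower and 2 higher, where all genes gave 9.91% and 19.9%, and 14% and 24.9%. The largest changes past the threshold were those of Tcirg1, given above, and of Atp6v1e2, the E2 subunit known from testis, whose call rests on 274 counts in Uninjured Control replicate 2 alone, since replicate 1 had 0. Atp6v1e2 passed the filter only through the controls, so its sign and calls carry no test, although the counts above include it. Atp6v1e1, the general E subunit, was 350 and 527 TPM in the controls, 252 to 348.5 TPM in SCI + Vehicle and 233 to 277 TPM in SCI + Atorvastatin mice. It fell by 0.72 on the log2 scale (edgeR adjusted p = 0.00374) and by 0.82 (edgeR adjusted p = 0.000235). Of 11 accessory and assembly genes 2 were called lower and 1 higher in each comparison, beside the same shares of all genes. Among them Tmem9, a lysosomal protein that binds the pump, fell by 0.83 and by 0.98, and was not called in either comparison without Uninjured Control replicate 1 (-0.11 and -0.25). Of the 4 MiT/TFE transcription factors, which drive lysosomal genes, none was called with SCI + Vehicle. With SCI + Atorvastatin the only call was Tfec, which passed the filter through that group alone, on at most 36 counts, so the call is not read. None of the 25 of these genes that were tested was called between the injured groups in edgeR, and 2 had an unadjusted p below 0.05 there (chosen after their values were seen, Tcirg1 with 0.33 and Ncoa7 with -0.22). Of all genes 7.03% had such a p.

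Levels were set beside cell type markers in each mouse. Of the 18 neuron markers 12 were called lower with SCI + Vehicle and 15 with SCI + Atorvastatin, against 9.91% and 14% of all genes. Between the injured groups all 18 had a negative value, as had 50.3% of all genes, with a median of -0.15. None was called in edgeR and 3 had an unadjusted p below 0.05, against 0.106% and 7.03% of all genes. Of the 12 microglia or macrophage markers 8 and 9 were called higher against the controls, where all genes gave 19.9% and 24.9%. None of the 12 was called between the injured groups (all 12 positive, median 0.16). The share that Atp6v1g2 took of the summed neuron markers was 1.42% and 2.84% in the controls, 2.505% ± 0.212 (SD, n = 7) in SCI + Vehicle and 2.20% ± 0.234 (SD, n = 7) in SCI + Atorvastatin mice. For Atp6v0e2 it was 1.47% and 2.03% in the controls, 1.66% ± 0.232 in SCI + Vehicle and 1.65% ± 0.0649 in SCI + Atorvastatin mice (SD, n = 7 in each). For Atp6v0a1 it was 1.11% and 1.21% in the controls, below every SCI mouse, and 1.56% ± 0.259 and 1.56% ± 0.0894 in the SCI groups (SD, n = 7 in each). Of the summed microglia or macrophage markers, Tcirg1 took 2.97% and 5.93% in the controls, above every SCI mouse. It took 1.15% ± 0.180 in SCI + Vehicle and 1.21% ± 0.141 in SCI + Atorvastatin mice (SD, n = 7 in each). Atp6v0d2 took 0% in both controls, and 0.813% ± 0.252 and 0.930% ± 0.143 in the SCI groups (SD, n = 7 in each). The part of neuron or macrophage content in the subunit values was not tested further.

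Within the groups of 7, 8 relations were computed. The genes and marker lists were chosen with earlier results of these data known, so their p values are descriptive. In SCI + Vehicle mice Atp6v0d2 followed the microglia or macrophage sum (Pearson r = 0.941, exact permutation p = 0.00238, adjusted p = 0.00635; Spearman rho = 0.893, exact permutation p = 0.0123, adjusted p = 0.0492). In SCI + Atorvastatin mice it did so too (r = 0.938, exact permutation p = 0.00218, adjusted p = 0.00635; rho = 0.857, exact permutation p = 0.0238, adjusted p = 0.0635). Without the 2 mice farthest from the median, r was 0.790 and 0.767. With 8 markers of osteoclasts or foamy macrophages, r was 0.969 in SCI + Vehicle (exact permutation p = 0.00139, adjusted p = 0.00635; rho = 0.964, exact permutation p = 0.00278, adjusted p = 0.0222) and 0.810 in SCI + Atorvastatin mice (exact permutation p = 0.0339, adjusted p = 0.0543; rho = 0.750, exact permutation p = 0.0663, adjusted p = 0.133), at 0.775 and 0.395 without the 2 farthest. Of the 8 markers of that list only 5 passed the filter and were tested. In both comparisons with controls 3 of these had positive and 2 had negative values. Called higher were 2 with SCI + Vehicle and 3 with SCI + Atorvastatin, where all genes gave 19.9% and 24.9%. In the list Dcstamp, Ocstamp, Calcr and Mmp12 had counts of 0 in both controls.

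Atp6v1g2 followed the neuron sum in SCI + Vehicle mice by Pearson's r (0.850, exact permutation p = 0.0115, adjusted p = 0.0230) and not by rank (rho = 0.714, exact permutation p = 0.0881, adjusted p = 0.141). In SCI + Atorvastatin mice r was 0.469 (exact permutation p = 0.305) and rho 0.429 (exact permutation p = 0.354). With Atp6v1g1, the other G form, r was -0.628 (exact permutation p = 0.137) and -0.456 (exact permutation p = 0.299), and rho -0.414 (exact permutation p = 0.360) and -0.643 (exact permutation p = 0.139). Without the 2 mice farthest in the x measure, r was 0.829 and 0.132 with the neuron sum, and 0.0809 and 0.367 with Atp6v1g1.

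**Figure D5:**
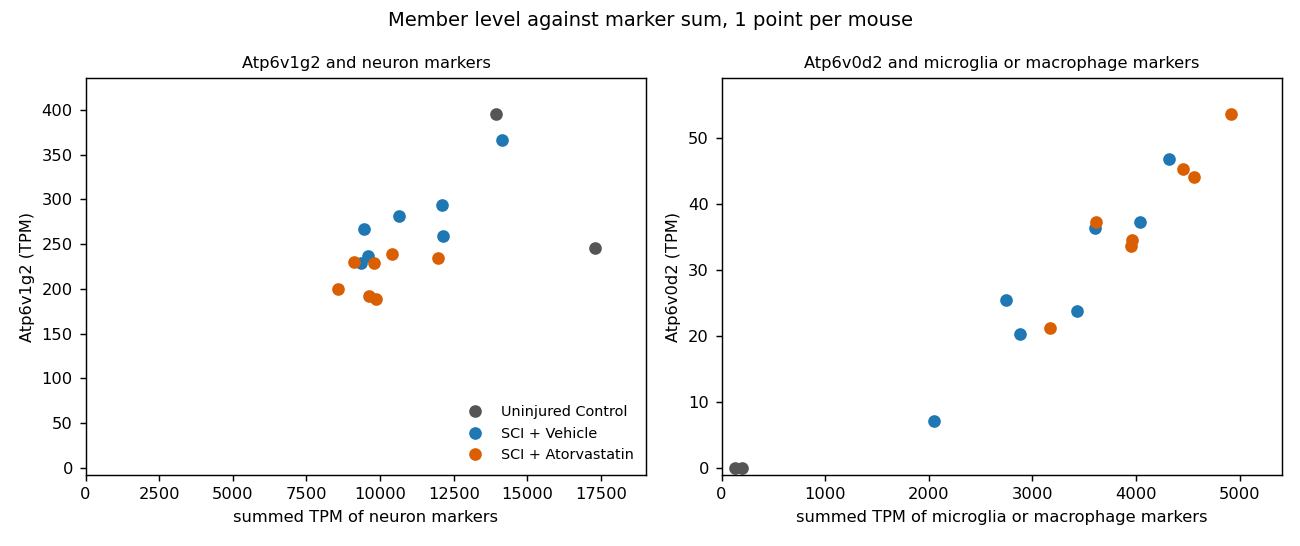
TPM of Atp6v1g2 against the summed TPM of 18 neuron markers (left), and of Atp6v0d2 against that of 12 microglia or macrophage markers (right), with 1 point per mouse. Atp6v0d2 lies along a line in both SCI groups and at 0 in the controls, where the marker sum is 132 to 193 TPM.

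The genes with the pattern most like each of these were ranked by Pearson's r over the 14 SCI mice after each group's mean was subtracted, as a description. For Atp6v1g2 they were Kcna2 (r = 0.915), a potassium channel of axons, Eno2 (0.915), the neuronal enolase, Pak3 (0.911), Vamp1 (0.907), a synaptic vesicle protein, and Rit2 (0.889). Of the other members, Atp6v1b2 and Atp6v1c1 came nearest (r = 0.715 each), ahead of Atp6v0e2 (0.625) and Atp6v0a1 (0.455). For Atp6v0d2 the genes were C6 (0.953, on 0 to 151 counts), Abca1 (0.943), a cholesterol exporter, Mmp3 (0.942), Sept2 (0.937) and Lipa (0.934), the lysosomal acid lipase. The r between Atp6v1g2 and Atp6v0d2 was -0.783. All of these values share the composition of the same libraries.

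Promoter windows of RefSeq (GRCm38.p6, 250 bases before to 50 after a start) were given for 6 of the 10 genes, in 9 windows. They were searched on both strands for the E-box CACGTG and the longer palindrome TCACGTGA, which is the core of the element bound by MiT/TFE factors at lysosomal genes. CACGTG was found in 2 windows, those of Atp6v0d1 and Atp6v1a, 3 and 131 bases before the start, and both were within TCACGTGA. In all 32851 windows CACGTG was present in 7.15% and TCACGTGA in 0.974%. In edgeR with all mice these 2 genes were not called in any of the 3 comparisons. Calls in other settings are given above.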

How the data were processed

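The spinal cord RNA of 16 mice was analysed, grouped by the sample labels. Libraries were made with a stranded total RNA kit. The submitters' processing notes name Trimmomatic 0.38, STAR 2.5.4b, RSEM 1.3.1 and the build mm10. The authors deposited raw counts as whole numbers and TPM for 24411 gene symbols. Which step made the whole-number counts is not given in the sources used here. For 81 genes averaging more than 5 TPM no mouse has a count.

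The tests took the 16091 genes whose TPM averaged over 1 in any condition. The deposited counts were scaled by TMM and fitted by quasi-likelihood in edgeR 4.0.16 (R 4.3.3), each fit holding only the groups it compared, with Benjamini-Hochberg adjustment over all of these genes. Standard errors were taken from the fold change and its F statistic. The calls used a limit of 1.25-fold with an adjusted p of 0.05 against controls or an unadjusted p of 0.001 between treatments. Alternatives used DESeq2 1.42.0, limma 3.58.1, other filters and scales, and each mouse left out in turn. On simulated data with 200 changed genes among 16091, edgeR recovered 28% (SCI + Vehicle against controls), 41.5% (SCI + Atorvastatin against controls) and 79.5% (between treatments). False calls were 3.45%, 4.6% and 3.05%. Of genes set to differ 2-fold it recovered 16.3%, 24.2% and 66.7%, in the same order. Of those set to differ 4-fold it recovered 39.2%, 57.1% and 91.3%. Recovery of smaller differences, or at the unadjusted limit used between treatments, was not tested. The simulation changed a far smaller share of genes than the 29.8% and 38.9% called against the controls. An adjusted p depends on how many genes differ, so its recoveries are not those of the real comparisons with controls. A count of 0 was read as up to 3 counts. Replicates are labelled as biological. Ratios, shares, correlations and sequences were handled in Python 3.11.15 with scipy 1.17.1 and biopython 1.88, and figures were drawn with matplotlib 3.10.9. Positions are those of GENCODE M21 on GRCm38.

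The genes, classes, marker lists, alternatives and the rule for named genes were chosen with earlier results of these data known. The text names the 10 genes, the partner isoforms Atp6v0e, Atp6v0a2, Tcirg1, Atp6v0a4 and Atp6v1b1, up to 5 called genes of the other lists with the largest fold change in each comparison, and the 5 genes most like Atp6v1g2 and Atp6v0d2. The astrocyte markers had 4 of 8 called higher in both comparisons with controls, with 1 and 2 lower, the oligodendrocyte markers 1 of 8 higher with 1 and 3 lower, and the liver genes 8 of 8 lower. All genes gave 19.9% and 24.9% higher, and 9.91% and 14% lower. None of 2 tested kidney genes was called.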

Additional observations from a re-analysis of the deposited data

How the results depend on the processing

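The number of the 10 genes called fell from 3 with SCI + Vehicle and 5 with SCI + Atorvastatin to 0 and 0 in limma-voom with group weights, and to 0 and 0 with the replicate number as a block. The cause was not tested. The numbers did not pair the mice: same-numbered SCI mice correlated between -0.214 and 0.148, and 0 of 7 matched their own number best. With mice of the same number taken as pairs, the ratio of Atp6v1g2 to Atp6v1g1 differed by -0.23 between the injured groups (exact permutation of signs within pairs, p = 0.266). Since the numbers did not pair the mice, nothing is drawn from that p. With DESeq2, 1 gene was called between the injured groups (Atp6v1g2). Leaving out each mouse gave 3 to 4, 5 to 7 and 0 to 1 calls in the 3 comparisons. The ratio of Atp6v0e2 to Atp6v0e then ran from -0.68 to -0.37 between the injured groups and from -1.98 to 0.16 for SCI + Vehicle against controls. The neuronal minus general value without Atp6v0c, an alternative chosen after seeing the data like the omission of SCI + Vehicle replicates 4 and 7 together, was -0.021 with SCI + Atorvastatin and 0.13 with SCI + Vehicle.

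Signs that turned belonged to genes near 0, to Atp6v1g1, to Atp6v1g2, to Atp6v1e2 and to Atp6v0e. On log2(TPM + 1) and log2(TPM + 0.1), limma gave for SCI + Vehicle 0.58 and 0.58 (Atp6v1g1), 0.19 and 0.20 (Atp6v0d1) and 0.17 and 0.17 (Atp6v1c1). For SCI + Atorvastatin it gave 0.47 and 0.47 (Atp6v1g1), 0.15 and 0.15 (Atp6v0d1), 0.25 and 0.25 (Atp6v1a) and 0.19 and 0.19 (Atp6v1c1), and between the injured groups 0.019 and 0.019 (Atp6v1c1). For Atp6v1a with SCI + Vehicle, DESeq2 gave -0.014, its size factors in edgeR -0.014, the replicate block -0.011 and omission of replicates 4 and 7 -0.034. The block gave 0.0014 for Atp6v1g1. Leaving out each mouse gave, for SCI + Vehicle, -0.83 to 0.12 (Atp6v1g2), -0.77 to 0.71 (Atp6v1g1), -0.34 to 0.32 (Atp6v0d1), -0.026 to 0.025 (Atp6v1a), -0.34 to 0.24 (Atp6v1c1), -6.29 to 4.79 (Atp6v1e2) and -0.29 to 0.68 (Atp6v0e). For SCI + Atorvastatin it gave -0.86 to 0.63 (Atp6v1g1), -0.37 to 0.28 (Atp6v0d1), -0.34 to 0.23 (Atp6v1c1), -10.11 to 1.69 (Atp6v1e2) and -0.081 to 0.90 (Atp6v0e), and between the injured groups -0.058 to 0.0084 (Atp6v1c1). With 2 controls, each fit without 1 of them assumes that the other varies like the SCI mice.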
